A study of Rattus norvegicus with 6 samples.

Results

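Matrix metalloproteinases (MMPs), their tissue inhibitors (TIMPs) and the related protease gene Adamts1 were examined in adipose-derived mesenchymal stem cells of Sprague Dawley rats, a culture of stromal cells from fat tissue. The 10 genes Mmp2, Mmp3, Mmp9, Mmp10, Mmp13, Mmp14, Timp1, Timp2, Timp3 and Adamts1 were chosen by their symbols, out of 21857 gene rows in the deposited table. All 10 had rows, and all 10 passed the low-count filter that left 12298 genes for testing. Their reads made up 1.11% to 1.15% of the counts of a library. RNA was sequenced from 3 libraries of cells given vehicle and 3 libraries of cells given 3.432 mM branched chain amino acids (BCAA: leucine, isoleucine and valine). Both groups were treated for 12 h in medium made without BCAA, with 10% fetal bovine serum and antibiotics, and both received 100 µM hydrogen peroxide, an oxidant. Cells without hydrogen peroxide were not analysed here, and what the vehicle was is not given in the sources used here. The comparison asks how the matrix-degrading enzymes of these cells and their inhibitors stood with and without BCAA under the same oxidant.

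MMPs are zinc-dependent endopeptidases that cut collagens, gelatin, fibronectin and other matrix proteins. They are made as inactive proenzymes, are activated by other proteases or at the cell surface, and are held in check by TIMPs, which bind the active site. In stromal cells of fat and other connective tissues they take part in matrix turnover, migration and the release of matrix-bound growth factors. All values here are transcript levels, and neither protein amounts nor enzyme activity were measured.

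Library totals lay between 12725344 and 15739731 counts. Vehicle replicate 1 stood apart from the other 5 libraries on the first principal component (score -26.8, against -0.538 to 15.2 for the others), so results that rest on it are also given without it. On the second component it scored 4.88, among the BCAA libraries (3.58 to 14), while vehicle replicates 2 and 3 scored -15.6 and -16.2. By chi-square per degree of freedom it differed least from BCAA replicate 3 (9.38, against 16.9 and 15.1 from vehicle replicates 2 and 3). Its mitochondrial share of counts was 6.58%, against 4.92% and 4.91% in the other vehicle libraries and 5.6% to 6.24% with BCAA. The cause was not tested. Stromal markers were high (Col1a1 at 7197 CPM, Thy1 at 354.0 CPM and Pdgfra at 272.0 CPM, where CPM is a gene's count relative to the library total). Markers of other cells ranged from no count to levels above that of Thy1. The leukocyte marker Lyz2 was at 666.3 CPM and the smooth muscle marker Tagln at 654.7 CPM. Endothelial and fat cell markers were low but not all absent. Of the endothelial genes, Cdh5 had at most 3 counts in a library but Tek had 40 to 79 and Tie1 48 to 80, and of the fat cell genes, Adipoq had at most 8 but Fabp4 57 to 89. Whether the replicates of a group were separate animals or separate cultures is not stated, so the p-values rest on a spread between libraries that could be technical. In whole-culture RNA, fewer cells that express a gene cannot be told apart from less RNA of it per cell.

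Of the proteases, the collagenase gene Mmp13 and the stromelysin genes Mmp3 and Mmp10 belong to a cluster of MMP genes on rat chromosome 8. In these counts the difference between BCAA and vehicle in Mmp13 was opposite in sign to those in Mmp3 and Mmp10. That of Mmp3 was small (log2 fold change -0.09, and -0.01 without vehicle replicate 1). The promoters of Mmp13, Mmp3 and Mmp10 are shown because MMP genes of this kind are textbook targets of AP-1, the FOS and JUN transcription factors. RefSeq promoter sequences (build GRCr8) were found for 7 of the 10 members. The 150 bases before the annotated start site are given 5′ to 3′ on the gene's strand, in lower case, with capitals for an AP-1 match (TGAGTCA or its reverse complement TGACTCA) and for the TATA box letters TATAAA. The windows are at chr8:12782679-12782828 for Mmp13, chr8:12925131-12925280 for Mmp3 and chr8:12974557-12974706 for Mmp10, all on the plus strand.
Mmp13: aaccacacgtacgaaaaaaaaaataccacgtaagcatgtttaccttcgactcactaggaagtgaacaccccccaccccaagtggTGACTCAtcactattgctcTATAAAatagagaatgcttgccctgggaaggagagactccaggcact
Mmp3: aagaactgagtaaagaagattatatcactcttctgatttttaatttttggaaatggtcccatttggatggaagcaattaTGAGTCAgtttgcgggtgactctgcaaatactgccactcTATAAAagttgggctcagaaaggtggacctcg
Mmp10: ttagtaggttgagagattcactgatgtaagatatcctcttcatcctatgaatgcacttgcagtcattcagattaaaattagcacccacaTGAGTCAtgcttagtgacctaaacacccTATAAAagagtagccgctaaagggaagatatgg

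Each of these 3 windows held 1 AP-1 match, with its first base 66, 71 and 61 bases before the start site in Mmp13, Mmp3 and Mmp10. The TATAAA letters began 47, 32 and 33 bases before it. No match to the same exact letters lay in the windows of Timp1, Timp2, Timp3 and Adamts1. Near forms were not searched, such as tgagtaa, which the Timp1 and Mmp3 windows hold. Among 27456 RefSeq promoters cut to the same length, 2.29% held an AP-1 match on either strand and 5.45% held TATAAA on the gene's strand. The window length was chosen after the matches were seen. A match describes the letters and does not show that a factor was bound.

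None of the 10 members differed between BCAA and vehicle at an adjusted p under 0.05 (edgeR, Benjamini-Hochberg over all 12298 genes tested), against 0.228% of all genes tested. With DESeq2, which gave no adjusted p for Timp3, the number was also 0, against 1.59% of the 8674 genes to which it gave an adjusted p. The smallest adjusted p among the members was that of Mmp10 (0.18). At an unadjusted p under 0.05 there were 5 members, of which Mmp13 was higher with BCAA and Mmp10, Timp1, Timp2 and Adamts1 were lower, against 11.8% of all genes. In 3 members, Mmp10, Timp2 and Adamts1, every BCAA library lay below every vehicle library on TMM-scaled levels. For Adamts1 this depended on the scaling. Of all genes, 8.76% lay so and 18.1% did not overlap in either direction. The median log2 fold change over the 10 members was -0.12, with 3 members higher and 7 lower in sign, while the median over all genes tested was 0.00. That median of the members was -0.05 without vehicle replicate 1.

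**Figure D1:**
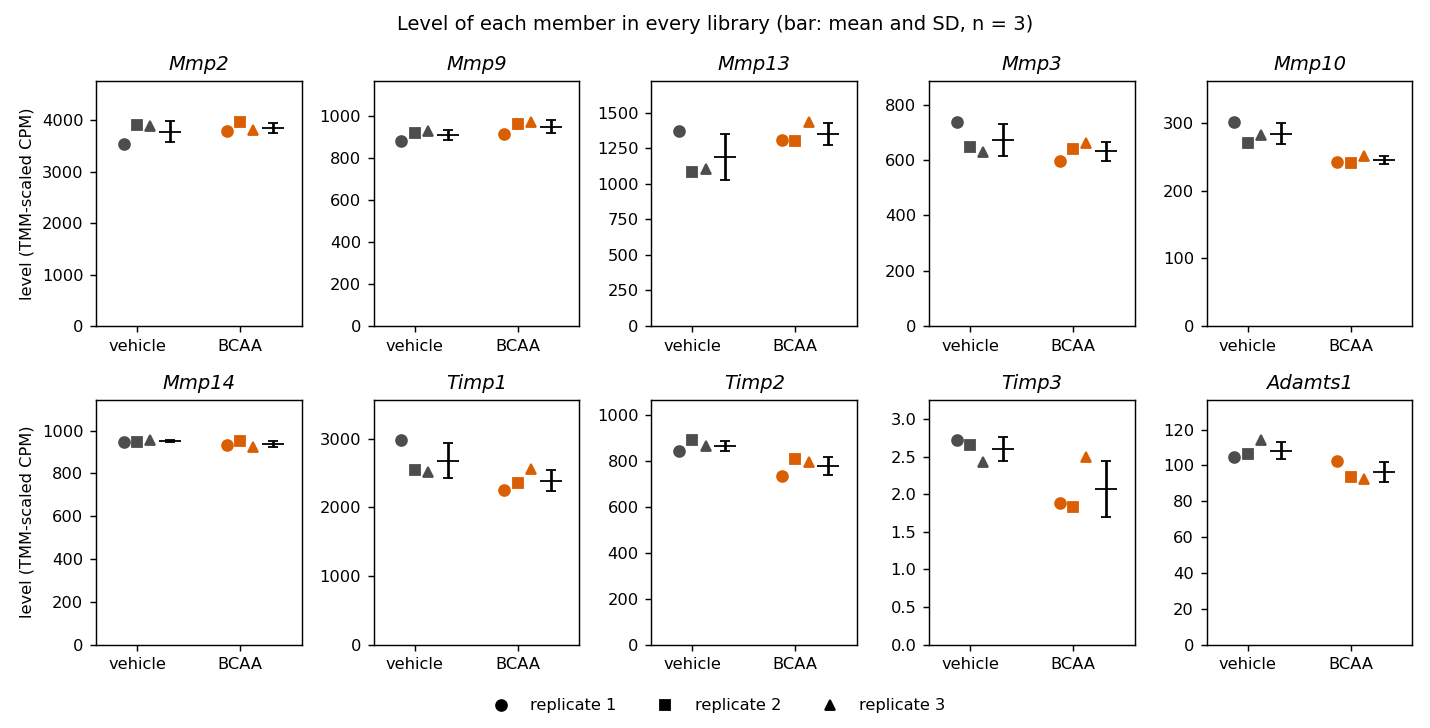
Levels of the 10 members in TMM-scaled CPM on the y axis, with 1 point per library (vehicle grey, BCAA orange, marker shape for the replicate number) and the mean with SD of 3 libraries beside each group; every axis starts at 0. At these scaled levels the groups do not overlap for Mmp10, Timp2 and Adamts1, for Adamts1 only after scaling. Vehicle replicate 1 lies above the other vehicle libraries for Mmp13, Mmp3, Mmp10, Timp1 and, narrowly, Timp3.

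Mmp13, the collagenase that cuts fibrillar collagen in rodents, was at 1374, 1086 and 1108 CPM in vehicle replicates 1 to 3 and at 1312, 1305 and 1437 CPM in BCAA replicates 1 to 3 (CPM on TMM-scaled library sizes, here and for the members below). Vehicle replicates 2 and 3 lay below all BCAA libraries, and vehicle replicate 1 lay among them. With a log2 fold change of 0.18 (SE 0.09), its level was 1.14-fold higher with BCAA, and the adjusted p was 0.42 in edgeR. Without vehicle replicate 1 it was 0.30 (SE 0.06) with an adjusted p of 0.0028, a fit in which 3.93% of all genes passed. Mmp13 was the only member called under any of the alternatives run, and its adjusted p over those alternatives ran from 0.0028 to 0.74.

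Mmp10, stromelysin 2, which cuts proteoglycans and fibronectin and can activate procollagenases, was at 301.8, 270.0 and 282.0 CPM with vehicle and at 242.7, 241.6 and 251.7 CPM with BCAA. All BCAA libraries lay below all vehicle libraries. Mmp10 thus had a log2 fold change of -0.21 (SE 0.06), 1.16-fold lower with BCAA, and the adjusted p of 0.18 in edgeR missed the threshold. Over the alternatives the log2 fold change stayed between -0.25 and -0.17, with adjusted p from 0.075 to 0.51.

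Mmp3, stromelysin 1, which cuts a similar range of matrix proteins, was at 738.0, 648.0 and 629.0 CPM with vehicle and at 595.0, 640.4 and 662.0 CPM with BCAA. Only vehicle replicate 1 lay outside the range of the BCAA libraries, above it. This gave a log2 fold change of -0.09 (SE 0.07; edgeR adjusted p = 0.68), and -0.01 without vehicle replicate 1. The 95% interval of the difference ran from -0.23 to 0.05 on the log2 scale.

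The gelatinases cut denatured collagen and the type IV collagen of basement membranes. Mmp2, the gelatinase that stromal cells make constitutively, was at 3541, 3905 and 3890 CPM with vehicle and at 3788, 3968 and 3803 CPM with BCAA, so the groups overlapped. Its log2 fold change was 0.03 (SE 0.06, 95% interval -0.10 to 0.15; edgeR adjusted p = 0.90), and -0.02 without vehicle replicate 1, the opposite sign. Mmp2 thus had no direction that held across the libraries.

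Mmp9, the gelatinase made in large amounts by neutrophils and macrophages, was at 878.9, 915.0 and 927.6 CPM with vehicle and at 912.3, 957.7 and 970.1 CPM with BCAA. The groups overlapped, and the log2 fold change was 0.06 (SE 0.06, 95% interval -0.06 to 0.18; edgeR adjusted p = 0.74). Because leukocytes are a known source of Mmp9, their markers are given beside it. Of 11 leukocyte markers in the table, 6 had a mean of at least 1 CPM, led by the lysozyme gene Lyz2 at 666.3 CPM and Cd14 at 104.2 CPM. The pan-leukocyte gene Ptprc was at 15.7 CPM and the macrophage genes Cd68, Adgre1 and Csf1r at 30.4, 18.3 and 17.4 CPM, while S100a9 and Cd3e had no count and Mpo had 1 count in all. The summed level of the 11 markers was 838.0 to 965.3 CPM with vehicle and 791.5 to 829.4 CPM with BCAA. Lyz2 and Cd14 carried that lower sum (log2 fold changes -0.20 and -0.12), while Ptprc, Cd68, Adgre1 and Csf1r were slightly higher in sign (0.10, 0.08, 0.05 and 0.09). S100a8, with 8 to 14 counts in a library, was at -0.33 (SE 0.41). None of the 7 tested markers was called. The part of leukocytes in the level of Mmp9 was not tested.

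Mmp14, the membrane-anchored protease that activates proMMP2 at the cell surface together with TIMP2, had the least spread of the members relative to its level. It was at 948.2, 948.4 and 955.0 CPM with vehicle and at 935.2, 953.2 and 924.1 CPM with BCAA. Its log2 fold change was -0.02 (SE 0.06, 95% interval -0.13 to 0.09; edgeR adjusted p = 0.92), and it was 0.01 without scaling factors, the opposite sign. The lower end of that interval lies above the value measured for Mmp10, but the Mmp10 interval (-0.34 to -0.09) overlaps it. A difference between these genes was not tested.

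The 3 TIMP genes were all lower in sign with BCAA, and none passed the test. Timp1, a secreted inhibitor of most MMPs, was at 2979, 2545 and 2520 CPM with vehicle and at 2252, 2360 and 2556 CPM with BCAA. Vehicle replicate 1 was far above the rest, and BCAA replicate 3 lay above vehicle replicates 2 and 3. Timp1 had a log2 fold change of -0.17 (SE 0.08; edgeR adjusted p = 0.42), and without vehicle replicate 1 it was -0.08 (adjusted p = 0.48).

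Timp2, which inhibits MMPs and also links proMMP2 to MMP14, was at 845.4, 889.9 and 865.7 CPM with vehicle and at 733.9, 806.7 and 794.2 CPM with BCAA. All BCAA libraries lay below all vehicle libraries. The log2 fold change was -0.16 (SE 0.06), or 1.11-fold lower with BCAA, with an edgeR adjusted p of 0.35. Unlike that of Timp1, it was no smaller without vehicle replicate 1 (-0.17, adjusted p = 0.070), and over the alternatives it ran from -0.18 to -0.12.

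Timp3, the inhibitor that stays bound to the matrix, had 38, 42 and 31 counts in the vehicle libraries and 28, 29 and 32 counts in the BCAA libraries. At 2.61 ± 0.155 CPM in the vehicle and 2.08 ± 0.371 CPM in the BCAA group (SD, n = 3 each) it was a low-count gene. Its log2 fold change of -0.34 had an SE of 0.26 and a 95% interval from -0.84 to 0.17 (edgeR adjusted p = 0.65), so a difference of the size of those of Timp1 and Timp2 was not detectable at this depth.

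Adamts1, a secreted protease with thrombospondin repeats that cuts the proteoglycans versican and aggrecan, was at 104.7, 106.3 and 114.0 CPM with vehicle and at 102.7, 93.8 and 92.7 CPM with BCAA. The BCAA libraries all lay below the vehicle libraries at these scaled levels, BCAA replicate 1 narrowly so. That order depended on the scaling. Unscaled, BCAA replicate 1 had 1522 counts of 14482260, more than the 1462 of 14484051 in vehicle replicate 1. Adamts1 had a log2 fold change of -0.17 (SE 0.07), a 1.12-fold lower level, with an edgeR adjusted p of 0.38.

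**Figure D2:**
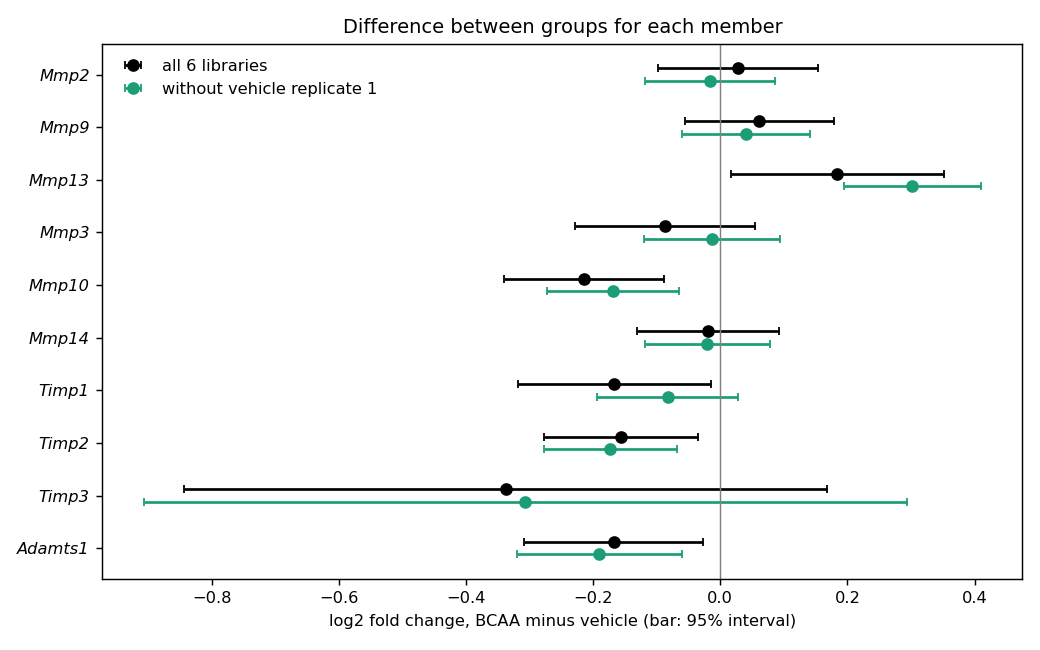
Log2 fold change (BCAA minus vehicle, x axis) of each member with its 95% interval, from all 6 libraries (black) and without vehicle replicate 1 (green). Leaving that library out moved Mmp13 from 0.18 to 0.30 and Timp1 from -0.17 to -0.08, while Mmp10, Timp2 and Adamts1 stayed between -0.21 and -0.16.

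The balance between protease and inhibitor transcripts was described by ratios of read counts within a library, which do not depend on scaling between libraries. Read counts were not divided by transcript length, so only differences of a ratio between libraries can be read. The ratio of Mmp13 to Timp1 was 0.461, 0.427 and 0.440 with vehicle and 0.583, 0.553 and 0.562 with BCAA, a 1.28-fold higher mean. All BCAA libraries lay above all vehicle libraries, vehicle replicate 1 included, since Mmp13 and Timp1 were both high in it. Without that library the mean ratio was 1.31-fold higher.

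The ratio of Mmp2 to Timp2 was 4.19, 4.39 and 4.49 with vehicle and 5.16, 4.92 and 4.79 with BCAA (1.14-fold). The ratio of Mmp14 to Timp2 was 1.12, 1.07 and 1.10 against 1.27, 1.18 and 1.16 (1.10-fold), and that of Mmp3 to Timp1 was 0.248, 0.255 and 0.250 against 0.264, 0.271 and 0.259 (1.06-fold). The 6 MMP counts summed over the 3 TIMP counts gave 2.03, 2.26 and 2.30 with vehicle and 2.61, 2.55 and 2.40 with BCAA (1.15-fold). In all 5 ratios the BCAA libraries lay above the vehicle libraries. Mmp2 and Mmp14 themselves had log2 fold changes of 0.03 and -0.02, and Timp2 had -0.16. The ratios to Timp2 thus mainly restate the lower Timp2 level and show no change of the protease transcripts. Over all pairs of tested genes with counts in each library, 16.8% of ratios did not overlap between the groups in either direction. The 5 ratios share Timp1, Timp2 and the libraries and are not 5 separate observations. They were also chosen with earlier results of these data known, so the share over all pairs is no test of them. With 3 libraries against 3, a two-sided exact permutation test cannot give a p below 0.1.

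**Figure D3:**
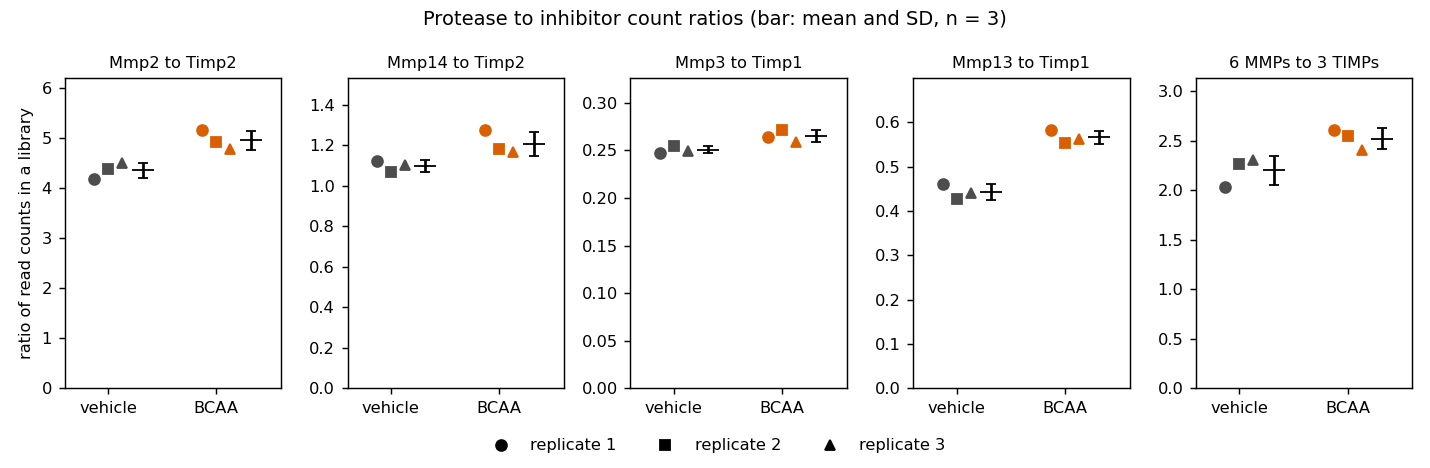
Ratio of protease to inhibitor read counts within each library (y axis, from 0), for 4 pairs of genes and for the summed MMP over the summed TIMP counts, with 1 point per library and the mean with SD of 3 libraries beside each group. In each panel the 3 BCAA libraries (orange) lie above the 3 vehicle libraries (grey).

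Of the other genes of matrix proteolysis, 78 were tested and none was called (edgeR, adjusted p under 0.05), while 19 had an unadjusted p under 0.05, where 11.8% of all genes did. DESeq2 called 3 of them, Adamts4, Ets2 and Plat, and 1.59% of the 8674 genes to which it gave an adjusted p. Of the other MMPs, 7 of 14 in the table were tested, 1 higher and 6 lower in sign (median log2 fold change -0.18). Mmp23, a membrane-tethered MMP, was at -0.26 (SE 0.09), Mmp19 at 0.19 (SE 0.07) and the macrophage elastase gene Mmp12 at -0.19 (SE 0.08), with edgeR adjusted p of 0.26, 0.27 and 0.36. Mmp20 and Mmp28 had no count, and the collagenase genes Mmp1 and Mmp8 had at most 7 counts in a library, so of the collagenases listed only Mmp13 was tested. Among other inhibitors, Tfpi2, a Kunitz-type inhibitor of serine proteases, had a log2 fold change of -0.27 (SE 0.09; adjusted p = 0.27) and Reck, a membrane-anchored MMP inhibitor, 0.02 (SE 0.08; adjusted p = 0.96), while Timp4 and A2m had no count.

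The ADAMTS family gave 7 genes higher and 4 lower in sign of 11 tested (median 0.03). Adamts4, an aggrecanase, had 132.5 ± 15.2 CPM in the vehicle group and 173.4 ± 5.59 CPM in the BCAA group (SD, n = 3 each), with a log2 fold change of 0.39 (SE 0.08) and an edgeR adjusted p of 0.064. It thus stood opposite in sign to Adamts1. Adamts8 and Adamts9 were at -0.28 (SE 0.10) and -0.30 (SE 0.11), with adjusted p of 0.27 and 0.32. The 7 ADAM sheddases, which release membrane proteins from the cell surface, had a median of 0.04, with Adam8 at 0.29 (SE 0.12), Adam10 at 0.08 (SE 0.08) and Adam17 at 0.04 (SE 0.06).

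Plasmin, made from plasminogen by the activators that Plat and Plau encode, can activate several proMMPs. Of 8 genes of plasminogen activation, 3 were higher and 5 lower in sign (median -0.08). Plat, tissue plasminogen activator, had 143.5 ± 4.42 CPM in the vehicle group and 172.6 ± 5.08 CPM in the BCAA group (SD, n = 3 each; log2 fold change 0.27, SE 0.06; edgeR adjusted p = 0.10). S100a10, a plasminogen receptor subunit, was at -0.28 (SE 0.08; adjusted p = 0.17) and Serpinb2, an inhibitor of urokinase, at -0.20 (SE 0.08; adjusted p = 0.38). Of 11 genes for MMP activation and uptake, 5 were higher and 6 lower in sign (median -0.02), with the proprotein convertase gene Pcsk6 at -0.54 (SE 0.15; adjusted p = 0.16), the caveolin gene Cav1 at -0.32 (SE 0.09; adjusted p = 0.18) and the proteoglycan gene Sdc1 at -0.15 (SE 0.08; adjusted p = 0.47).

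Of 13 matrix genes tested, 3 were higher and 10 lower in sign, between -0.12 and 0.07 (median -0.05), and none had an unadjusted p under 0.05 in edgeR. Fibronectin (Fn1) was at -0.11 (SE 0.07), biglycan (Bgn) at -0.12 (SE 0.07) and Col5a2 at -0.06 (SE 0.07). Of 19 factors and cytokines known to induce MMP genes, 9 were higher and 10 lower in sign (median -0.02). In 5 of them every BCAA library lay above every vehicle library, and in 1 below. Of all genes, 18.1% did not overlap in either direction. The FOS and JUN genes were mixed in sign and none was called. Jun was at 0.24 (SE 0.10; edgeR adjusted p = 0.37), Fosb at 0.16, Fosl1 at 0.06, Junb at 0.02, Fosl2 at -0.03, Jund at -0.08 and Fos at -0.11. Ets2, an ETS transcription factor, was at 0.31 (SE 0.08; adjusted p = 0.12). Runx2, a regulator of Mmp13 in skeletal cells, was at 0.36 (SE 0.10; adjusted p = 0.18), and Nfkb1 was at -0.15 (SE 0.06; adjusted p = 0.35). Without vehicle replicate 1, 10 of the other pathway genes were called in a fit that called 3.93% of all genes, with Adamts4, Runx2, Plat, Ets2 and Mmp19 higher and Col1a1, Pcsk6, Jund, Sdc1 and Mmp23 lower. Col1a1, the collagen I chain gene, moved in that fit from -0.11 (SE 0.15) to -0.29 (SE 0.06; adjusted p = 0.0063), outside the range of the substrates over all 6 libraries.

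**Figure D4:**
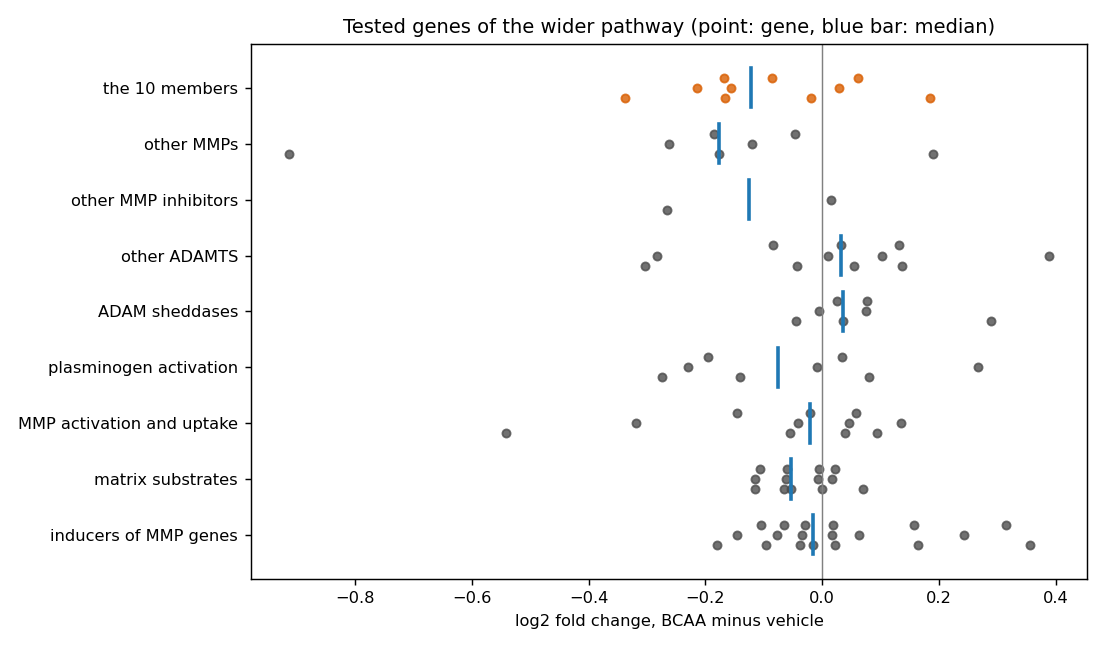
Log2 fold changes (BCAA minus vehicle, x axis) of the 10 members (orange) and of the tested genes in each list of the wider pathway (grey), with 1 point per gene and a blue bar at the median; vertical offsets within a row carry no meaning. With all 6 libraries the substrates lie between -0.12 and 0.07, and Adamts4 is the highest point at 0.39.

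Mmp10 had the smallest p of the members, and its profile was compared with those of 8458 other tested genes with a mean of at least 10 CPM. The closest by Pearson correlation of log2 CPM over the 6 libraries were Cd55, a complement regulator (r = 0.998), Ggct, gamma-glutamylcyclotransferase (r = 0.996), and the tropomyosin gene Tpm1 (r = 0.995). Their log2 fold changes were -0.27, -0.30 and -0.32, and none was called. The correlation includes the difference between the groups, and it rests on 6 libraries. Smooth muscle and pericyte markers also lay lower with BCAA, at a summed 882.3 to 945.9 CPM with vehicle and 605.2 to 634.6 CPM with BCAA. Most of that sum was Tagln (mean 654.7 CPM). Of 5 tested, all were lower in sign and 2 were called (Acta2 and Tagln), where 21 of all 12298 genes tested were called lower. Rgs5, a pericyte marker, had at most 2 counts in a library. The part of these markers in the lower values of Mmp10, Timp2 and Adamts1 was not tested.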

How the data were processed

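The authors deposited raw read counts per gene symbol for 6 libraries, neither normalized nor pooled. Per the submitters' processing notes, Trimmomatic, FastQC, STAR, HTSeq and build rn6 were used. The annotation, the strand setting and tool versions are not given, so reads of overlapping genes cannot be assigned with certainty. Columns were matched to libraries by title. The 15 pairs of libraries differed by a chi-square per degree of freedom of 2.65 to 18.1, so none was counted as a copy. Counts were tested with edgeR 4.0.16 (quasi-likelihood, robust, TMM scaling, filterByExpr with minimum count 10 and minimum total 15) in R 4.3.3, with Benjamini-Hochberg adjustment over 12298 genes and a threshold of 0.05. The fits were tested on simulated counts. The SE is the log2 fold change divided by the square root of F, and 95% intervals are from the normal distribution. That distribution takes no account of the small number of libraries, so the intervals are somewhat narrower than the F test implies. DESeq2 1.42.0, RLE scaling, no scaling, no filter, a replicate block and leaving out each library were alternatives. Transcript lengths were not used, so levels of different genes are not comparable as transcript numbers. The members, lists and ratios were chosen with earlier results of these data known. Named were all members, called genes and the 3 smallest p of each pathway list, and the 3 genes most like the member with the smallest p. Genes outside that rule (Mmp1, Mmp8, Mmp20, Mmp28, Timp4, A2m, the FOS and JUN genes, the markers, and genes called in an alternative) were named after their values were seen. Mmp11, Mmp25, Col1a2, Itgam and Pecam1 were not analysed here.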

Additional observations from a re-analysis of the deposited data

How the results depend on the processing

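Of the 10 members, none was called in the 6-library edgeR fit, and 1, Mmp13, was called without vehicle replicate 1 (log2 fold change 0.30); the range over leaving out each library was 0 to 1. Mmp2 turned to -0.015 without vehicle replicate 1 (range 0.051 to -0.015 with 1 library left out) and Mmp14 to 0.0098 without scaling factors; the other 8 kept their sign under every alternative run. DESeq2 gave no adjusted p for Timp3. The number of genes called was 28, and it was 138 by DESeq2, 124 without the low-count filter, 6 with the replicate number as a block, and 7 to 491 with 1 library left out, the highest without vehicle replicate 1. Other pathway genes called numbered 3 by DESeq2, 2 with no filter on low counts and 0 to 10 with 1 library left out. The median log2 fold change of the members was -0.12, and -0.13 to -0.052 with 1 library left out. The 5 ratios stayed above 1 with each library left out, the lowest at 1.04 (Mmp3 to Timp1). Same-numbered vehicle and BCAA libraries did not deviate together (correlations -0.07, 0.11 and -0.15 for numbers 1, 2 and 3). Their total counts were close, however. The vehicle and BCAA totals were 14484051 and 14482260 for number 1, 15739731 and 15654060 for number 2, and 12725344 and 12802663 for number 3. Whether they were paired is not stated, and correlations over 3 libraries per group cannot decide it. With the replicate block none of the members was called. Depth limits Timp3 most, with at most 42 counts in a library. The cause of these differences was not tested.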

Other observations

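Within the MMP cluster, the ratio of collagenase to stromelysin transcripts did not overlap between the groups. These ratios were chosen after the values were seen and are given as values, without a test. The ratio of Mmp13 to Mmp10 read counts within a library was 4.55, 4.02 and 3.93 with vehicle and 5.41, 5.40 and 5.71 with BCAA, a 1.32-fold higher mean. The ratio of Mmp13 to Mmp3 was 1.86, 1.68 and 1.76 with vehicle and 2.21, 2.04 and 2.17 with BCAA, a 1.21-fold higher mean. In both, all BCAA libraries lay above all vehicle libraries, including vehicle replicate 1, in which Mmp13, Mmp3 and Mmp10 were each the highest of the vehicle libraries. Over all pairs of tested genes, 16.8% of ratios did not overlap between the groups.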
